A study of Mus musculus with 4 samples.

Results

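The dopamine receptors (Drd1, Drd2, Drd3, Drd4 and Drd5) and the pore subunits of the G protein-gated inwardly rectifying potassium channel (GIRK, encoded by Kcnj3, Kcnj5, Kcnj6 and Kcnj9) were examined in RNA from the tagged ribosomes of midbrain dopamine neurons. A probe set was taken as a member where its only annotated symbol was one of these 9 genes. This gave 21 of the 45101 probe sets of the array, for 8 of the 18193 genes measured, and of these 6 belong to receptors and 15 to channel subunits. Drd5 had 0 probe sets by this rule and was not analysed here.

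TRAP RNA (Translating Ribosome Affinity Purification, arrays of replicates 2 and 4) is pulled down with a GFP-tagged ribosomal protein, EGFP/RPL10A. It was compared with input RNA of the dissected midbrain (replicates 1 and 2), which the labels also describe as unbound. All 4 arrays came from adult mice of both sexes, 6 to 12 weeks old, of the Slc6a3 JD1640 TRAP line, 5 mice pooled per array. This is 1 transgenic line, in which a bacterial artificial chromosome carrying the dopamine transporter gene Slc6a3 drives the tag, so both fractions carry the transgene. The line was founded on FVB and bred to C57BL6/j, and carriers were kept as trans-heterozygotes. Levels are 2 raised to the deposited log2 value, in arbitrary units, and 50 units is taken as background. The tissue is a mixture and TRAP is a pull-down. More cells with an RNA, more RNA per cell, more of it on ribosomes and non-specific carry-over therefore cannot be told apart.

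Dopamine neurons carry receptors for their own transmitter. When dopamine binds the D2 receptor on the cell body or dendrites, a Gi/o protein is activated, its beta-gamma dimer opens GIRK channels, potassium leaves the cell and firing slows. D1-like receptors (Drd1 and Drd5) couple instead to Gs and Golf and raise cyclic AMP, and D2-like receptors (Drd2, Drd3 and Drd4) couple to Gi/o. GIRK channels are tetramers. Kcnj3 encodes GIRK1, which needs another subunit to reach the membrane, Kcnj6 encodes GIRK2, Kcnj9 encodes GIRK3 and Kcnj5 encodes GIRK4, best known from the heart.

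Drd2 was the only member called higher in TRAP RNA and Kcnj3 the only one called lower. The 250 bases upstream of their annotated starts are given for these 2 genes (RefSeq, GRCm38.p6, plus strand, chr9:49340153-49340402 for Drd2 and chr2:55435720-55435969 for Kcnj3). Capitals mark the GC box letters GGGCGG on either strand.
Drd2: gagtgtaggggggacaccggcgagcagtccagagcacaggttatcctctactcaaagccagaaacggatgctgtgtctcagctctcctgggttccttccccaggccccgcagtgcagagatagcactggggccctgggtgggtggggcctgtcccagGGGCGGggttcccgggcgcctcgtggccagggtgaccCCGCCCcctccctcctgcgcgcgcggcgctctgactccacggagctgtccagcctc
Kcnj3: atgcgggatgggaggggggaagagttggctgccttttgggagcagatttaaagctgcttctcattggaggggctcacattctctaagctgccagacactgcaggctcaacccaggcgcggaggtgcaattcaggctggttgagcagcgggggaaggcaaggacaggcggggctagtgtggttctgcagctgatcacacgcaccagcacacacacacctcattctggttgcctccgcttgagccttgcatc
The Drd2 window held 2 GC boxes and the Kcnj3 window 0, while 32.7% of 32851 mouse windows of this length held at least 1 and 16.7% held 2 or more. The motifs AAAGGTCA, bound by the dopamine neuron factor Nr4a2, TAATCC, bound by bicoid-type homeodomain factors such as Pitx3, and TATAAA were also searched for on both strands, and none matched in either window. They occur in 1.34%, 6.25% and 12.4% of all windows. These searches describe the letters only. Over all 9 genes (11 windows) AAAGGTCA matched 0 times, and TAATCC and TATAAA matched once each, both in the Kcnj9 window.

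The members differed in whether the arrays gave a level at all. Only 4 of the 21 probe sets reached 50 units on both arrays of at least 1 fraction, 1 of Drd2, 1 of Kcnj3 and 2 of Kcnj9. Another 16 were below 50 units on all 4 arrays, and the last, of Kcnj5, reached it on 1 input array. Over the whole array 17073 of 45037 non-control probe sets were above background by this definition. Among the 4, 1 was higher in TRAP (18.8% of all probe sets above background were) and 1 was lower (9.13% were) at an adjusted p under 0.05 from limma. Centring the arrays on bright probe sets changed the whole-array split to 3745 higher and 3867 lower, against 3213 higher and 1559 lower as deposited, and quantile normalization gave 2222 and 2038. In 3 of the 4 the fractions did not overlap, as in 76.3% of all probe sets above background. Counted by gene, with the brightest probe set of each, 3 member genes were above background, of which 1 was higher and 1 lower, beside 18.7% and 6.87% of the 10014 genes above background.

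**Figure D1:**
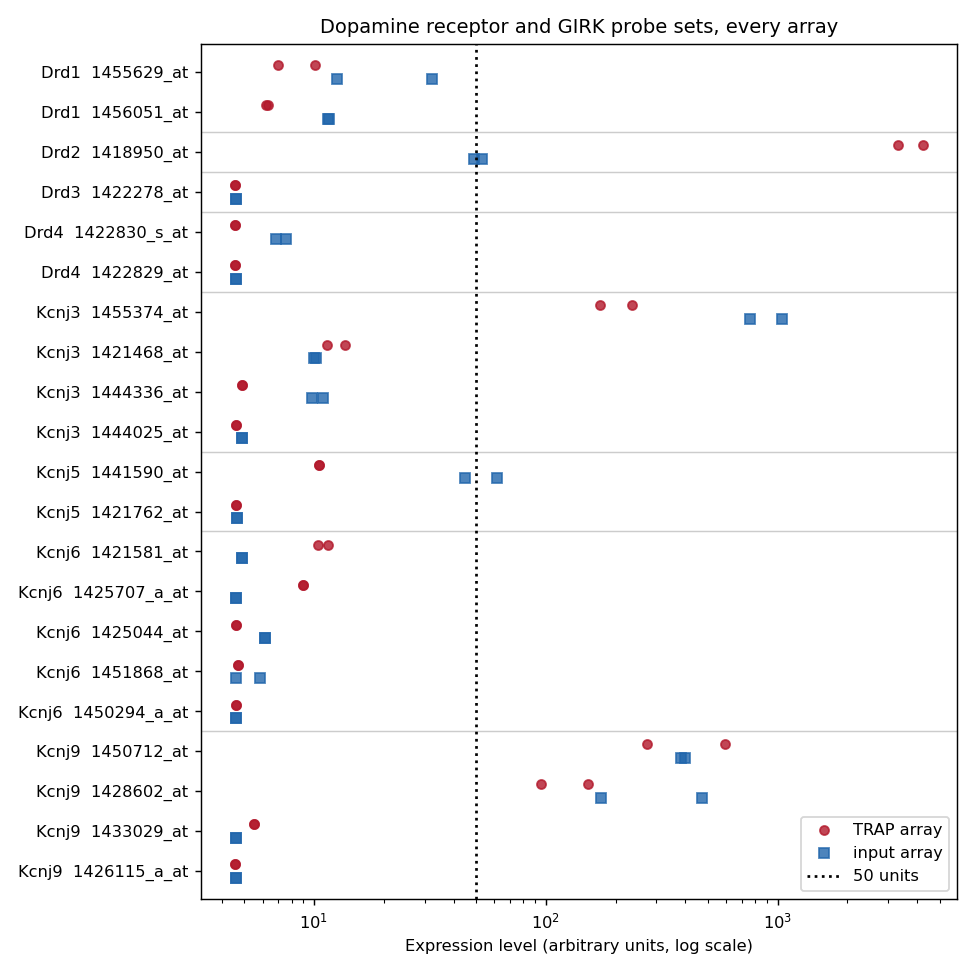
Levels of the 21 member probe sets (arbitrary units, log axis), with TRAP arrays as circles above input arrays as squares and 50 units as the dotted line. Drd2 is the single receptor probe set to the right of the line, with TRAP arrays at 3319 and 4246 units and input arrays at 53.0 and 49.0.

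Among the receptors, Drd2 stood alone. Its probe set (1418950_at) read 3319 units on TRAP replicate 2 and 4246 units on replicate 4, against 53.0 and 49.0 units on input replicates 1 and 2. Both TRAP arrays lay far above both input arrays, and the input level sat at the background line, with 1 of the 2 arrays under it. The log2 fold change was 6.20 (standard error 0.17, 95% interval 5.55 to 6.86, adjusted p = 0.00148 from limma), or 73.6-fold. Between the arrays that share replicate number 2 the difference was 6.08 log2 units, and over the 4 possible pairs of a TRAP and an input array it ran between 5.97 and 6.44. The Drd2 call held under all 12 alternatives, with log2 fold changes between 5.79 and 6.38 and adjusted p up to 0.0289 from limma.

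The 3 genes whose pattern over the 4 arrays lay closest to that of Drd2 were Trpc6, Chrna6 and Th, at distances of 0.314, 0.499 and 0.547 log2 units between centred values. Trpc6, a cation channel, was at 468 units on both TRAP arrays and at 7.24 and 7.13 in input. Chrna6, a nicotinic acetylcholine receptor subunit, was at 5233 and 8226 units in TRAP and 121 on both input arrays. Th, tyrosine hydroxylase of the dopamine pathway, was at 16613 and 20947 units in TRAP and at 326 and 386 in input. That all 3 lay far higher on both TRAP arrays than on both input arrays follows from how they were chosen. The place of Trpc6 rests on input values below background, against which its TRAP level is at least 9.36-fold higher. With values under 50 units raised to 50, the log2 fold change of Trpc6 was 3.23 and that of Drd2 6.19.

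The other receptors gave no level above background in either fraction. Drd1, the main D1-like receptor of the striatum, was at 6.99 and 10.1 units in TRAP and 12.6 and 32.3 in input on its brighter probe set (1455629_at). On the second Drd1 probe set (1456051_at) it was at 6.22 and 6.35 units in TRAP and 11.5 and 11.6 in input. All these Drd1 values are below 50 units, and no direction is given for Drd1. Drd3, a D2-like receptor of the ventral striatum and its islands, was at 4.58 units on both TRAP arrays and 4.59 on both input arrays, the lowest values of each fraction. Drd4, a D2-like receptor, stood at those same lowest values on 1 probe set (1422829_at), and on the other (1422830_s_at) was at 4.58 units on both TRAP arrays and 6.87 and 7.59 in input. For these 3 receptors the arrays show only that the signal was under 50 units, not that the RNA was absent.

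Among the channel subunits, Kcnj3 was lower in TRAP and Kcnj9 did not pass the test. Kcnj3 (GIRK1) on probe set 1455374_at was at 235 and 172 units in TRAP, against 762 and 1041 in input. Both TRAP arrays lay below both input arrays and above background. The log2 fold change was -2.15 (standard error 0.30, 95% interval -3.27 to -1.03, adjusted p = 0.0306 from limma), a level 4.44-fold lower in TRAP. The difference between the arrays of replicate number 2 was -2.15, and over the 4 pairs it ran between -2.60 and -1.70. Kcnj3 missed the threshold without any 1 of the 4 arrays (adjusted p = 0.125 without TRAP replicate 2, 0.130 without TRAP replicate 4, 0.0990 without input replicate 1 and 0.124 without input replicate 2, all from limma), while its log2 fold change stayed between -2.37 and -1.92. The call was lost, too, when every value below 50 was set to 50 (adjusted p = 0.122 from limma), a setting that left its own 4 values as they were.

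The remaining 3 Kcnj3 probe sets were below background on every array, the brightest of them (1421468_at) at 13.6 and 11.4 units in TRAP and 9.99 and 10.2 in input. The statement on Kcnj3 therefore rests on 1 of its 4 probe sets. When the 4 were averaged, Kcnj3 was below background in both fractions (15.4 units in TRAP and 25.9 in input, log2 fold change -0.75) and no call was made. The genes with the most similar pattern to Kcnj3 over the 4 arrays were Tspan14, a tetraspanin (distance 0.0531 log2 units), Kcnj10, the inward rectifier Kir4.1 known from glia (0.0564), and Slc1a3, a glutamate transporter of astrocytes (0.169). Their lower values on both TRAP arrays follow from how they were chosen. Which cells gave the Kcnj3 signal was not tested. Kcnj10 was at 963 and 686 units in TRAP and 3213 and 4255 in input.

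Kcnj9 (GIRK3) was the only subunit with more than 1 probe set above background, and those differed in sign. Probe set 1450712_at was at 596 and 273 units in TRAP and 397 and 384 in input, so that the input arrays lay between the TRAP arrays. Its log2 fold change was 0.05 (standard error 0.52, 95% interval -1.93 to 2.03, adjusted p = 0.944 from limma), and its sign changed among the alternatives, which ran between -0.51 and 0.61. Probe set 1428602_at was at 152 and 95.3 units in TRAP and 173 and 471 in input. Here both TRAP arrays were below both input arrays, but TRAP replicate 2 and input replicate 1 were only 0.19 log2 units apart, and the log2 fold change of -1.25 did not pass (standard error 0.74, 95% interval -4.05 to 1.55, adjusted p = 0.267 from limma). Both intervals span changes in either direction, so a difference of Kcnj9 was not detectable with 2 arrays per fraction. The other Kcnj9 probe sets were at most 5.51 units on any array.

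Kcnj6 (GIRK2), a pore subunit long known from dopamine neurons of the substantia nigra, and the gene mutated in the weaver mouse, gave no usable level. All 5 of its probe sets were below 50 units on all 4 arrays. The highest value of any of them was 11.5 units. Probe set 1421581_at was at 11.5 and 10.4 units in TRAP and 4.89 on both input arrays, and 1425707_a_at was at 8.99 on both TRAP arrays and 4.59 on both input arrays. On these 2 the TRAP arrays were above the input arrays, on 1425044_at they were below (4.62 on both TRAP arrays and 6.13 on both input arrays), and the remaining 2 read at most 5.84 units on any array. The signs thus disagreed among the probe sets of 1 gene, and no direction is given for Kcnj6. Kcnj5 (GIRK4) was at 10.5 units on both TRAP arrays and 44.7 and 61.8 in input on probe set 1441590_at, so that only 1 input array reached background, and at 4.60 to 4.66 units on the other.

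Of the 17 member probe sets not above background, 11 had an adjusted p under 0.05 from limma, and they are not counted as changes. Of the 21 member probe sets, 7 held the same value on both arrays of TRAP and on both arrays of input, all 7 of them below background. For such probe sets no spread between arrays is seen and the p-value carries no information. The lowest value was 4.58 units on both TRAP arrays and 4.59 units on both input arrays.

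**Figure D2:**
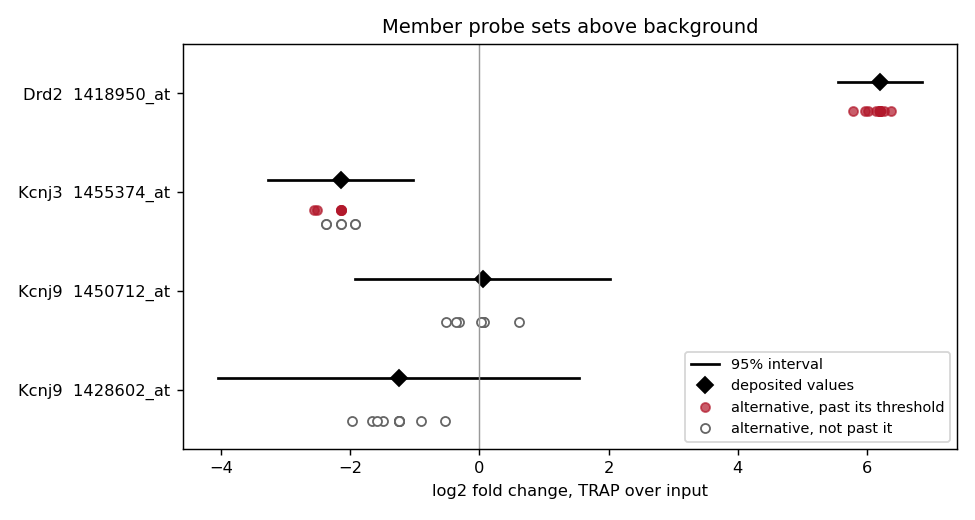
Change between the fractions (log2, TRAP minus input) of the 4 member probe sets above background. Diamonds with bars are the deposited values with 95% intervals from limma, and circles are the 12 alternatives, filled where past the threshold of that alternative: Drd2 is filled throughout (5.79 to 6.38), Kcnj3 in part (-2.56 to -1.92) and Kcnj9 not at all.

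Drd2 and Kcnj3 thus ran in opposite directions, and they were also compared within each array. Levels of different probe sets are not on a common scale, so only the shift between fractions can be read. The log2 difference of Drd2 minus Kcnj3 was 3.82 and 4.63 in TRAP and -3.85 and -4.41 in input, a shift of 8.35 log2 units. That shift restates the changes of 6.20 and -2.15 given above and is no further result. Both genes alone already separated the fractions in opposite directions, so the lack of overlap of this pair was fixed in advance. Kcnj3 minus Kcnj9 (1450712_at) was -1.34 and -0.67 in TRAP and 0.94 and 1.44 in input, a shift of -2.20. With the other Kcnj9 probe set (1428602_at) it was 0.63 and 0.85 in TRAP and 2.14 and 1.14 in input, a shift of -0.90. In each of these 3 comparisons the fractions did not overlap, but all 3 use Kcnj3, whose own values were already apart. The share of other probe set pairs without overlap was not computed. Each comparison had an exact permutation p of 0.333 (2-sided), the smallest that 2 arrays against 2 can give. That test cannot reach 0.05 here, no other test of these shifts was run, and they are given as descriptions.

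Markers of dopamine neurons and of other cells were also compared between the fractions. All 8 dopamine neuron markers (Th, Slc6a3, Slc18a2, Ddc, Nr4a2, Pitx3, En1 and Foxa1) rose in TRAP and were called higher. Of all genes above background 18.7% were. The median log2 fold change of the 8 was 5.03, or 4.03 with the 2 whose input level was below background (Pitx3 and En1) at their bounds. Their levels summed to 111511 to 143773 units in TRAP and 10371 to 11206 in input, and such sums are set against each other only for the same probe sets. Of 20 markers of other cell types above background, 18 had a log2 fold change under 0. The median of all genes above background was 0.44, and the share of them under 0 was not computed. Of the 18, Gad2, Slc1a3 and Cx3cr1 passed the test, beside 6.87% of all genes above background called lower. Summed levels of the 5 astrocyte markers were 4266 to 7649.6 units in TRAP and 19047 to 19814 in input. Those of the 3 GABAergic neuron markers were 2839 to 5960.1 units in TRAP and 5968 to 12865 in input. Gad1 made up most of the GABAergic sums and overlapped, at 3529.6 and 1676 units in TRAP and 9647 and 3529 in input. Slc32a1 overlapped too, at 2251 and 986 units in TRAP and 2304 and 1697 in input. Neither passed (adjusted p = 0.306 for Gad1 and 0.596 for Slc32a1 from limma). The sums of the 4 measured oligodendrocyte markers were 20489 to 46159.7 units in TRAP and 49517 to 62013 in input. Mbp, a myelin protein, made up most of these sums and overlapped between the fractions, at 41048 and 18665 units in TRAP and 37197 and 41658 in input. Of the markers of other cells 1 was called higher, the striatal marker Rasd2, at 2975 and 2856 units in TRAP and 746 and 679 in input. No value is 0 on these arrays, but the microglial marker P2ry12 and the endothelial markers Pecam1 and Flt1 stood at the floor of 4.58 units on both TRAP arrays. These 3 were below background in input as well, P2ry12 at 5.88 and Pecam1 at 4.59 units on both arrays and Flt1 at 13.1 and 12.4. The part of other cell types in the lower Kcnj3 level was not tested.

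The TRAP arrays were not alike in these markers. On TRAP replicate 2, 19 of the 20 markers of other cells were higher than on TRAP replicate 4, and 1 of the 8 dopamine neuron markers was. The share of all genes above background that were higher on TRAP replicate 2 was not computed. Whether these counts are particular to the markers among all genes is therefore not known. In the 7 pathway lists below, in their order, 2 of 5, 5 of 12, 5 of 11, 1 of 9, 4 of 10, 2 of 5 and 1 of 3 genes above background were higher there. Kcnj3 was 0.45 and Kcnj9 (1450712_at) 1.13 log2 units higher on TRAP replicate 2, and Drd2 was 0.36 lower there. For Gapdh, the control probe set at the 3′ end exceeded the one at the 5′ end, a readout of RNA integrity and amplification, by 4.96 and 3.52 log2 units in TRAP and 6.81 and 6.39 in input, and its part in the members' values was not tested.

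The other genes of the pathway were taken from 7 lists, 80 genes in all, of which 73 had a probe set with that symbol alone and 55 were above background. Of the 55, 10 were higher in TRAP (18.2%) and 5 lower (9.09%), near the 18.7% and 6.87% of all genes above background. Their median log2 fold change was 0.57, beside 0.44 for all genes above background. These shares are close to the background, so the counts say nothing particular of the pathway. The same shares of all genes belong beside the counts of each single list below, which are small. Without TRAP replicate 2, or without TRAP replicate 4, 2 were higher and 2 lower. Of the 5 lower genes, Rgs9, Htr1a and Kcnj16 had a TRAP level below background, so their p-values come from fits to values that the arrays did not measure above it.

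**Figure D3:**
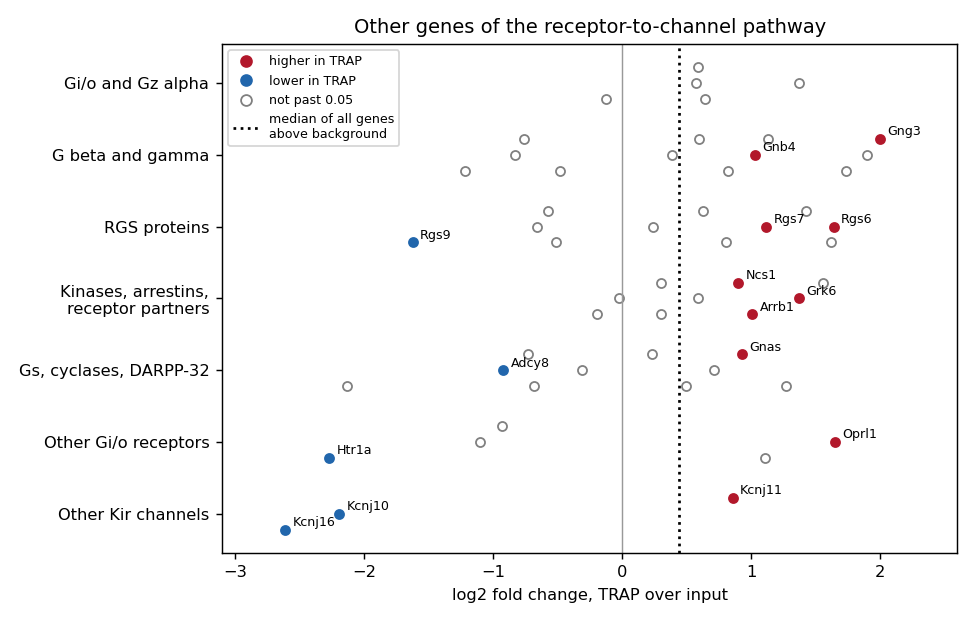
The 55 pathway genes above background by list (x axis, log2 change, TRAP minus input), with genes past an adjusted p of 0.05 from limma filled and named and the median of all genes above background (0.44) as a dotted line. The 10 filled genes on the right run up to Gng3 at 2.0 and the 5 on the left down to Kcnj16 at a fitted -2.61, where the TRAP level is below background.

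Of the 5 Gi/o-family alpha subunits, which carry the signal away from the D2 receptor, 0 passed at an adjusted p under 0.05 from limma, and 1 (Gnao1) passed at an unadjusted p under 0.05. Without input replicate 1, 4 of the 5 were higher, and without input replicate 2, 3 were, while without either TRAP array 0 were. Gnai1 was at 12773 and 12674 units in TRAP and 9962 and 7178 in input (log2 fold change 0.59, adjusted p = 0.139 from limma, against 0.00561 without input replicate 1 and 0.0148 without input replicate 2), and Gnai2 at 5237 and 3656 in TRAP and 4261 and 5328 in input (-0.12, adjusted p = 0.736 from limma). The sign of Gnai2 changed among the alternatives, which ran between -0.66 and 0.14. Of 12 beta and gamma subunits, which open the channel, 2 rose and 0 fell. Gng3, a neuronal gamma subunit, was at 6294 and 4843 units in TRAP and 1728 and 1107 in input (3.99-fold higher, log2 change 2.0, standard error 0.35, adjusted p = 0.0461 from limma). Gnb4, a beta subunit, was at 481 and 558 units in TRAP and 227 and 285 in input (1.03, standard error 0.18, adjusted p = 0.0479 from limma). The other 10 beta and gamma subunits did not pass, and without any 1 of the 4 arrays 0 of the 12 were called higher.

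RGS proteins speed the return of G proteins to rest and so the closing of GIRK channels. Of 11 above background, 2 rose and 1 was called lower, and without TRAP replicate 2 or 4 the number higher was 0. Rgs6 was at 214 units on both TRAP arrays and 77.6 and 60.8 in input (log2 fold change 1.64, adjusted p = 0.0172 from limma). Its TRAP values were identical, so the spread behind this p was seen on the input arrays only. Rgs7, of the same subfamily, was at 1559 and 1555 units in TRAP and 787 and 653 in input (1.12, adjusted p = 0.0211 from limma). Rgs9, best known from striatal neurons, was at 20.4 units on both TRAP arrays, below background, and at 54.9 and 72.1 in input, which is at least 1.26-fold lower (limma, adjusted p = 0.0213). The fold of Rgs9 is a bound, computed against 50 units, and the p belongs to the fit of the values as deposited. With values under 50 raised to 50, Rgs9 did not pass (log2 change -0.33, adjusted p = 0.691 from limma).

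Receptor kinases, arrestins and receptor partners switch off or reshape the D2 signal. Of 9 above background 3 rose and 0 fell, beside 18.7% higher and 6.87% lower among all genes above background. After quantile normalization 0 of the 9 were called higher. Grk6, a receptor kinase, was at 7495 and 8048 units in TRAP and 2734 and 3313 in input (log2 fold change 1.37, adjusted p = 0.0173 from limma). Arrb1, which encodes beta-arrestin 1, was at 1101 and 1245 units in TRAP and 522 and 649.9 in input (1.01, adjusted p = 0.0432 from limma). Ncs1, neuronal calcium sensor 1, a calcium-binding partner of the D2 receptor, was at 3369.5 and 3441 units in TRAP and 1659.6 and 2017 in input (0.90, adjusted p = 0.0345 from limma). All 3 had both TRAP arrays above both input arrays, and without TRAP replicate 2 or 4 none of the list was called.

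On the side of cyclic AMP, 1 of 10 genes rose and 1 fell. Gnas, the stimulatory alpha subunit, was at 25313 and 25482 units in TRAP and 13536 and 13058 in input (0.93 log2 units higher, standard error 0.02, limma adjusted p = 0.00131). Adcy8, a calcium-stimulated adenylate cyclase, was at 159 and 151 units in TRAP and 274 and 314 in input (-0.92, adjusted p = 0.0189 from limma). Gnas was the only 1 of the 15 pathway genes called here that passed under all 12 alternatives, and the other 14 missed the threshold under 3 to 7 of them. The log2 change of Gnas was 0.48 after quantile normalization and 0.52 after centring on bright probe sets. The median of all probe sets above background moved in the same way, from 0.44 to 0.07 and 0.03. Its small standard error rests on 2 arrays per fraction.

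Other Gi/o-coupled receptors that can open GIRK channels gave 1 higher and 1 lower among 5 above background. Oprl1, the nociceptin receptor, was at 1553 and 2255 units in TRAP and 583 and 608 in input (log2 fold change 1.65, adjusted p = 0.0368 from limma). Htr1a, the serotonin 1A receptor, was at 12.0 units on both TRAP arrays and 54.9 and 61.6 in input, which is at least 1.16-fold lower (limma, adjusted p = 0.00221 for the values as deposited). With values under 50 raised to 50, Htr1a did not pass (log2 change -0.22, adjusted p = 0.408 from limma). Of 11 inward rectifiers outside the GIRK family only 3 were above background, and all 3 passed, 1 higher and 2 lower. With so few genes no share is set against that of all genes. Kcnj11, the pore of the ATP-sensitive potassium channel, was at 235 units on both TRAP arrays and 118 and 142 in input (0.86, adjusted p = 0.0337 from limma). Here too the TRAP values were identical and only the input arrays showed a spread. Kcnj10 fell (log2 fold change -2.19, adjusted p = 0.0298 from limma), and Kcnj16, its channel partner Kir5.1, was at 41.8 units on both TRAP arrays and 197 and 329 in input, which is at least 5.10-fold lower (limma, adjusted p = 0.0284 for the values as deposited, 0.132 with values under 50 raised to 50). Kcnj10 and Kcnj16 are known from astrocytes and oligodendrocytes. All 5 astrocyte markers and all 4 measured oligodendrocyte markers had a log2 fold change under 0, with medians of -2.24 and -1.89. Of these, 1 astrocyte marker (Slc1a3) and 0 oligodendrocyte markers were called lower. The part of these cells in the Kcnj10 and Kcnj16 values was not tested.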

How the data were processed

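Midbrain RNA was hybridized to Affymetrix mouse expression arrays after repeated amplification. The authors normalized the arrays with GCRMA (no version is given in the sources used here) and deposited log2 values, 1 per probe set and array. No further normalization was applied here. Control probe sets of the manufacturer (64 of 45101) were not tested. The platform's annotation gives 34945 probe sets 1 symbol, 932 several and 9160 none, and 34741 were matched by gene identifier to RefSeq, with 0 symbols changed.

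TRAP was compared with input in limma 3.58.1 (R 4.3.3), with 1 coefficient for the fraction over 45037 probe sets, empirical Bayes variance (prior degrees of freedom 0.317, residual 2), 2-sided, and Benjamini-Hochberg adjustment at 0.05. Calls were counted where both arrays of a fraction reached 50 units. Where both arrays of 1 fraction lay below 50 units, the fold was computed against 50 as a bound. Genes were represented by the probe set with the highest mean. Pathway genes are named where they passed, at most 3 per list, by size of change, and otherwise the brightest to make 2. For Drd2 and Kcnj3 the 3 genes nearest by Euclidean distance of centred log2 values are named. Gnao1 and the markers Rasd2, Gad2, Slc1a3, Cx3cr1, P2ry12, Pecam1 and Flt1 were singled out after their values were seen. Members and lists were chosen with earlier results of these data known. Promoter sequences are from RefSeq, where all 9 genes matched with 11 windows. The number of arrays limits the precision, and p-values measure the spread between pools. The paper took input from each replicate, so the TRAP and input arrays of replicate number 2 may come from the same mice. The fit treats all 4 arrays as independent.

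Alternatives were quantile normalization, centring on bright probe sets, a fit above background only, values raised to 50 units, an intensity trend, controls kept, each array left out, a threshold of 0.01, a background of 100 units and the mean of a gene's probe sets.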

Additional observations from a re-analysis of the deposited data

How the results depend on the processing

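The count of members higher in TRAP was 1 under every alternative, Drd2 each time. The count of members lower was 0 in place of 1, by limma, with values raised to 50 units, at a threshold of 0.01, with the mean of a gene's probe sets and without any 1 array (0 to 0). At an unadjusted p under 0.05, Kcnj3 was lower with values raised to 50 and at the 0.01 threshold, and not without any 1 array. Without TRAP replicate 2 the 1 lower member was instead Kcnj9 (1450712_at), which without TRAP replicate 4 was higher, beside Drd2. The log2 change of this probe set, 0.05 as deposited, turned to -0.32 after quantile normalization, -0.36 after centring and -0.51 without TRAP replicate 2 (0.61 without TRAP replicate 4), and that of Gnai2, -0.12 as deposited, to 0.14 without TRAP replicate 4 and 0.04 without input replicate 2 (-0.38 without TRAP replicate 2). No other tool was run. Of pathway genes, 10 were higher as deposited, against 3 after quantile normalization, 1 with values raised to 50, 1 at 0.01, 13 in the fit above background only, 14 with an intensity trend, and 2 to 10 with 1 array left out. Lower were 5, against 10 after centring, 1 with values raised to 50, 1 at 0.01, 3 with a background of 100 units, 3 with the mean of a gene's probe sets, and 2 to 5 with 1 array left out. Causes were not tested, apart from the smaller set counted at 100 units. Where 1 array was left out, the lone array of a fraction was assumed to vary like those of the other. Over all probe sets above background the higher calls ran from 824 (values raised to 50) to 4377 (intensity trend) around 3213, and the lower calls from 467 to 3867 around 1559. The median log2 change of all probe sets above background moved by -0.41 after centring and by -0.37 after quantile normalization. No paired analysis was possible because the fractions share only replicate number 2. For the 16 member probe sets below 50 units on all 4 arrays, the signal over background does not allow a direction.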
